A study of Mus musculus with 6 samples.

Results

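The genes described here are those carried by the mitochondrial DNA (mtDNA) and the nuclear genes whose products copy, transcribe and translate it. They were taken by name as every protein-coding gene whose symbol begins with mt- and a fixed list of nuclear genes for mtDNA replication, mtDNA transcription, mitochondrial RNA handling, mitochondrial translation and the nuclear transcription factors of that machinery. Of 35 symbols, 34 were found among the 22611 genes measured, 13 of them on the mtDNA and 21 in the nucleus. *Slirp*, which encodes the RNA-binding partner of LRPPRC, was not listed under that symbol. Its RefSeq synonym *1810035L17Rik* was listed, and its values are given below beside *Lrpprc* without being counted. The choice used symbols and not measured values, and all 34 genes had a mean above 1 FPKM and were tested.

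The study asked how the small intestinal epithelium changes when ESRRA, a nuclear receptor that acts on genes of energy metabolism, is lost. Duodenal epithelium was taken from 3 mice labelled WT and 3 labelled as Esrra knockouts, here Esrra-/-, and 1 RNA-seq library was made per mouse. The methods describe the controls as littermates and the diet as high in fat for about 8 weeks. The epithelium was lifted off the duodenum with EDTA. Esrra-/- is a germline null, so ESRRA was missing from every tissue of these mice and not from the epithelium alone. The colony that gave the null mice also carried a Villin-CreERT2 transgene and a floxed *Esrra* allele, and the labels do not say which of the mice sequenced here had inherited either. The age, sex and strain of each mouse are not given in the sources used here. The methods state that males and females were both used in work with the germline null. All values are deposited FPKM, fragments on a gene scaled to transcript length and to the library. Differences are log2 fold changes, Esrra-/- over WT, taken on the log2(FPKM + 0.1) scale, on which changes of weakly expressed genes come out too small. A call needed an unadjusted limma p under 0.05 together with a log2 fold change beyond 0.58 in either direction, and in the text "fell" and "rose" stand for called genes.

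The mammalian mtDNA is a small circle present in many copies per cell. Its protein-coding genes all encode subunits of the respiratory chain or of the ATP synthase, and the remaining subunits of those complexes are made from nuclear genes and imported. Both strands are transcribed into long precursors by the polymerase POLRMT with TFAM and TFB2M, and the precursors are cut at the tRNAs that separate most genes, then stabilised by LRPPRC and SLIRP and translated on mitochondrial ribosomes. Enterocytes of the villus depend on this machinery for the energy that nutrient uptake requires.

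The annotation of the mtDNA in NCBIM37 (mm9) has 16299 bases with 13 protein-coding genes, 2 rRNA genes and 22 tRNA genes. Of the protein-coding genes, 12 lie on the plus strand and 1, *mt-Nd6*, on the minus strand. The rRNA and tRNA genes were not analysed here. Where neighbouring genes overlap, a fragment from the shared bases can be given to either gene, so the 3 longest overlaps are shown with 30 bases on each side, read from the NCBIM37 plus strand, with the shared bases in capitals. *mt-Atp8* and *mt-Atp6* share 43 bases (chrM:7927-7969), which make up 21.1% of *mt-Atp8*. *mt-Nd4l* and *mt-Nd4* share 7 bases (chrM:10167-10173). *mt-Nd5* and *mt-Nd6*, which are read from opposite strands, share 14 bases (chrM:13552-13565).
mt-Atp8 and mt-Atp6, chrM:7897-7999: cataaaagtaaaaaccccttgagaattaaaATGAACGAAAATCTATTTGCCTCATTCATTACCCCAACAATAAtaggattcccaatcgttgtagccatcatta
mt-Nd4l and mt-Nd4, chrM:10137-10203: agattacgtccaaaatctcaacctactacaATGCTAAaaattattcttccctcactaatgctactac
mt-Nd5 and mt-Nd6, chrM:13522-13595: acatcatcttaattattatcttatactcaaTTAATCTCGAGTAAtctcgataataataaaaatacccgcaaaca

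For the nuclear genes, exact matches to 4 short motifs were sought on both strands in RefSeq promoters (GRCm38.p6, 250 bases before to 50 after the start site), where 20 of the 21 genes had 22 promoters. AAGGTCA, the short core motif of ESRR receptors, was found in 1 of the 22 (4.55%) and in 4.72% of all 32851 promoters, and the longer TCAAGGTCA, which contains it, in 0 of the 22 and in 0.423% of all. CCGGAAGT, the ETS motif bound by GABPA, was found in the promoters of *Gfm1*, *Polg*, *Tfam* and *Tufm*, 18.2% of the 22 where 3.89% of all promoters hold it. GCATGCGC, the core of the NRF1 motif, was found in those of *Polrmt* and *Tfb2m*, 9.09% of the 22 where 2.71% of all hold it. Stretches of 3 promoters are shown because *Gfm1* alone held the ESRR core motif and *Tfam* and *Tfb2m* encode the core of mtDNA transcription. They read 5′ to 3′ on the strand of the gene, with the matched motifs in capitals. In *Gfm1* the capitals mark the reverse complement of AAGGTCA, which starts 12 bases before the start site, and then CCGGAAGT, which starts 1 base before it.
Gfm1, chr3:67430077-67430147, plus strand: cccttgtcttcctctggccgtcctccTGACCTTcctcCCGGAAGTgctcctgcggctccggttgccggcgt
Tfam, chr10:71238058-71238117, minus strand: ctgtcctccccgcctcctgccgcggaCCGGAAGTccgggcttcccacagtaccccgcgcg
Tfb2m, chr1:179546230-179546289, minus strand: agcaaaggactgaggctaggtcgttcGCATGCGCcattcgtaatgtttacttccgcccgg

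The targeted gene followed the labels. *Esrra* was at 49.4, 73.5 and 104 FPKM in WT and at 10.4, 9.42 and 8.72 FPKM in Esrra-/-, a log2 fold change of −2.92 (SE 0.26, limma adjusted p = 0.0215 after Benjamini-Hochberg). Replicate 3 of each genotype stood apart from the other libraries. Its Y-linked transcripts summed to 0.0487 FPKM in WT and 0.222 FPKM in Esrra-/-, against 27.3 to 46.7 FPKM in the other 4 libraries. By these transcripts the replicate 3 mice read as female and the other 4 as male. The main counts and medians are also given without both replicate 3 libraries. Markers of villus enterocytes were abundant in every library (all 10 present, summed 39470 to 64507 FPKM in WT and 48782 to 68329 in Esrra-/-) and stood highest in replicate 3 of each genotype. Markers of Paneth cells summed to 7844 to 17580 FPKM in WT and 1646 to 7469 in Esrra-/-, and those of crypt and stem cells to 155 to 280 and 65.2 to 207 FPKM, with replicate 3 lowest in each genotype for both lists. Of the mesenchymal markers 5 of 7 were under 1 FPKM in every library, and of the pancreatic acinar markers 5 of 6. The Paneth ranges of the genotypes did not overlap, and the part of these cell types in the differences reported here was not tested. In bulk tissue, fewer cells of a type and less RNA per cell cannot be told apart.

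The mtDNA-encoded transcripts were among the most abundant in the epithelium in both genotypes and stood somewhat lower in Esrra-/-, by less than the spread between mice. All 13 were among the 25 highest genes by mean FPKM. None was called in either direction by limma and 0 had an unadjusted p under 0.05, where 6.49% of all genes were lower and 4.3% higher at that p. The log2 fold changes ran from −0.41 to −0.14 with a median of −0.33, where the median of all 10596 genes tested was 0.03. With quantile normalization the median of the 13 was −0.02. All 13 were negative, against 45.7% of all genes, except with quantile normalization, where *mt-Nd5*, *mt-Nd6* and *mt-Co2* were positive and *mt-Co1* and *mt-Co3*, which held the same rank in every library, showed no difference. The 13 transcripts are cut from shared precursors and are not 13 separate observations. For none of them did the genotypes separate, whereas 9.14% of all genes had every Esrra-/- library below every WT library and 3.28% were called lower. Every mtDNA gene had its highest value in WT replicate 3, and Esrra-/- replicate 3 lay above WT replicate 1 for all 13 and above WT replicate 2 for 11.

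Complex I, which takes electrons from NADH, has 7 of its subunits encoded by the mtDNA. *mt-Nd1* (chrM:2751-3707) had 15221, 17872 and 28083 FPKM in WT and 13959, 13152 and 19873 FPKM in Esrra-/-. *mt-Nd2* (chrM:3914-4951) had 6000, 7649 and 11815 FPKM in WT and 5330, 5703 and 8032 FPKM in Esrra-/-. *mt-Nd3* (chrM:9459-9806) had 5310, 6425 and 10047 FPKM in WT and 4948, 4388 and 6763 FPKM in Esrra-/-. In each of these 3 genes the first pair of Esrra-/- libraries lay below all WT libraries, and Esrra-/- replicate 3 lay above WT replicates 1 and 2. Their log2 fold changes were −0.36 (SE 0.40), −0.38 (SE 0.36) and −0.41 (SE 0.35), with limma adjusted p-values of 0.773, 0.736 and 0.707.

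*mt-Nd4* and *mt-Nd4l*, whose proteins sit in the membrane arm of complex I, are the overlapping pair of that complex. *mt-Nd4* (chrM:10167-11544) had 11162, 12752 and 19079 FPKM in WT and 10442, 10331 and 15304 FPKM in Esrra-/-. *mt-Nd4l* (chrM:9877-10173) had 5050, 5953 and 7335 FPKM in WT and 4830, 5054 and 6729 FPKM in Esrra-/-. The groups overlapped in both, with log2 fold changes of −0.24 (SE 0.37, limma adjusted p = 0.844) and −0.14 (SE 0.30, limma adjusted p = 0.89). *mt-Nd5* (chrM:11742-13565), a proton-pumping subunit, had 4941, 5491 and 6871 FPKM in WT and 4967, 4185 and 5706 FPKM in Esrra-/-. Its log2 fold change was −0.22 (SE 0.28, limma adjusted p = 0.806), and Esrra-/- replicate 1 stood level with WT replicate 1.

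*mt-Nd6* (chrM:13552-14070, minus strand) is the one protein-coding gene of the light-strand precursor, and its mRNA is known to lack a stable poly(A) tail. It had 4745, 5844 and 8627 FPKM in WT and 5342, 4175 and 5737 FPKM in Esrra-/-, overlapping groups with a log2 fold change of −0.30 (SE 0.33, limma adjusted p = 0.764). The library kit does not mark the strand, so fragments of *mt-Nd6* and of RNA from the opposite strand cannot be told apart. As a share of the median heavy-strand gene of the same library, *mt-Nd6* was 36, 35.8 and 36.6% in WT and 41.4, 34.9 and 32.6% in Esrra-/-. The means of 36.1% ± 0.433 and 36.3% ± 4.56 (SD, n = 3 each) differed by less than the spread in Esrra-/-.

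*mt-Cytb* (chrM:14145-15288), the mtDNA-encoded subunit of complex III, had 15375, 17562 and 28048 FPKM in WT and 13547, 12927 and 20410 FPKM in Esrra-/-, a log2 fold change of −0.36 (SE 0.41, limma adjusted p = 0.773). The 3 catalytic core subunits of cytochrome c oxidase, complex IV, were among the 4 highest genes of the whole epithelium. *mt-Co1* (chrM:5328-6872), the highest of all genes, had 34800, 36007 and 53201 FPKM in WT and 32670, 29693 and 43940 FPKM in Esrra-/-. *mt-Co2* (chrM:7013-7696) had 29491, 31812 and 48805 FPKM in WT and 26149, 22935 and 38493 FPKM in Esrra-/-. *mt-Co3* (chrM:8607-9390) had 25633, 29407 and 44880 FPKM in WT and 22825, 21179 and 32985 FPKM in Esrra-/-. Esrra-/- replicates 1 and 2 were the lowest libraries for each of the 3 oxidase genes, and replicate 3 of each genotype was the highest of its group. The log2 fold changes were −0.22 for *mt-Co1*, −0.33 for *mt-Co2* and −0.36 for *mt-Co3*, with standard errors of 0.43 to 0.44 and limma adjusted p-values of 0.783 to 0.881.

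Of the ATP synthase, the mtDNA encodes the proton-channel subunit ATP6 and the small subunit ATP8. *mt-Atp6* (chrM:7927-8607) had 26939, 33290 and 50064 FPKM in WT and 24196, 23861 and 38019 FPKM in Esrra-/-, a log2 fold change of −0.34 (SE 0.45, limma adjusted p = 0.806). *mt-Atp8* (chrM:7766-7969) had 9686, 15097 and 17803 FPKM in WT and 12261, 11014 and 13071 FPKM in Esrra-/-, a log2 fold change of −0.19 (SE 0.36, limma adjusted p = 0.876). *mt-Atp8* was the exception among the 13 in having its lowest value in a WT library, replicate 1. Both genes come from 1 mRNA and share the 43 bases shown above, and the ratio of *mt-Atp8* to *mt-Atp6* was 36, 45.4 and 35.6% in WT and 50.7, 46.2 and 34.4% in Esrra-/-, with overlapping groups. The ratio of *mt-Nd4l* to *mt-Nd4*, likewise from 1 mRNA, was 43.5% ± 4.4 in WT and 46.4% ± 2.48 in Esrra-/- (SD, n = 3 each).

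**Figure D1:**
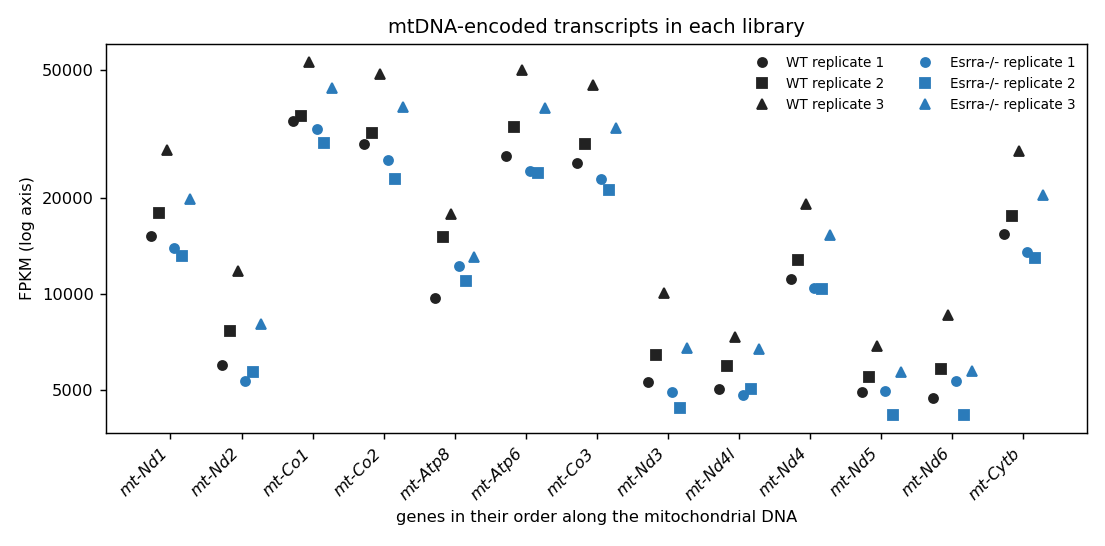
FPKM of the 13 mtDNA genes on a log axis, in the order of the genes along the mtDNA. Each point is 1 library, WT in black and Esrra-/- in blue, with the replicate number as the shape. WT replicate 3 is the highest library for all 13 genes and Esrra-/- replicate 3 lies above WT replicate 1 for all 13, so the genotypes overlap throughout.

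Summed over the 13 genes, the mtDNA gave 194353, 225161 and 334658 FPKM in WT and 181465, 168597 and 255062 FPKM in Esrra-/-, or 26.3, 27.5 and 33.5% and 24.3, 23.8 and 28.3% of the FPKM of each library. This share of FPKM is weighted by gene length and is not the share of sequenced fragments. The WT libraries averaged 251390 ± 73739 FPKM (SD, n = 3) and the Esrra-/- libraries 201708 ± 46652 (SD, n = 3), so that Esrra-/- stood at 80.2% of WT, a difference smaller than the SD in WT. The log2 ratio of the sums, −0.32, was −0.06 without WT replicate 3, −0.20 without Esrra-/- replicate 2 and −0.52 without Esrra-/- replicate 3. As a share of each library's FPKM the means were 29.1% ± 3.84 in WT and 25.5% ± 2.44 in Esrra-/- (SD, n = 3 each), so that Esrra-/- stood at 87.6% of WT, a log2 ratio of −0.19. Within the libraries that held Y-linked transcripts, replicates 1 and 2, the mean was 209757 FPKM in WT and 175031 FPKM in Esrra-/-, or 83.4% of WT, and in the libraries without them, replicate 3, it was 334658 and 255062 FPKM, or 76.2%. On the share these came to 89.5% and 84.6% of WT. Both Esrra-/- libraries with Y-linked transcripts lay below both such WT libraries for 9 of the 13 genes, and Esrra-/- replicate 3 lay below WT replicate 3 for all 13. The shares of all genes ordered in these ways were not determined, and the 13 genes are not 13 separate observations.

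With the presence of Y-linked transcripts as a covariate in limma, 7 of the 13 mtDNA genes had an unadjusted p under 0.05 (0.0241 to 0.394 over the 13), where 18.6% of all genes did, and none had an adjusted p under 0.05 or was called. Without the covariate the limma p-values of the 13 genes ran from 0.283 to 0.647 in the main fit. They ran from 0.19 to 0.506 in limma without a trend and from 0.564 to 0.921 in limma with no filter on low values. With quantile normalization the smallest was 0.086 (limma). The median log2 fold change of the mtDNA genes was −0.10 without WT replicate 3, −0.17 without Esrra-/- replicate 2 and −0.54 without Esrra-/- replicate 3. Without both replicate 3 libraries it was −0.28. The villus enterocyte markers were likewise highest in replicate 3 of each genotype. Between the genotypes 9 of these 10 markers had a positive log2 fold change and 1 a negative one, where 45.7% of all genes were negative. Their median was 0.19 and none was called. The part of these markers in the mtDNA level was not tested. The 95% intervals of the 13 log2 fold changes reached from −1.39 to 0.79. All 13 held 0, and all 13 also held −0.61, the median change of the nuclear-encoded subunits described next.

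The nuclear-encoded subunits of the same complexes were lower in Esrra-/- and stood further below WT than the mtDNA-encoded ones. Of 71 measured subunits of complexes I, III, IV and V, 45 fell (63.4%, against 3.28% of all genes) and 0 rose, with a median log2 fold change of −0.61. None of the 71 had a limma adjusted p under 0.05. The 45 became 18 (median −0.46) without WT replicate 3, 22 without Esrra-/- replicate 1 and 27 without Esrra-/- replicate 2, and with any other library left out they were between 44 and 59. Without both replicate 3 libraries they were 37, with a median of −0.59. By complex, 22 of 36 fell in complex I, 5 of 9 in complex III, 8 of 11 in complex IV and 10 of 15 in complex V. To set the genomes side by side within a library, the mean log2 deviation of the mtDNA-encoded subunits from their own means was taken, and that of the nuclear-encoded subunits was subtracted from it.

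This difference was −0.31, −0.12 and −0.09 in the WT libraries and 0.15, 0.11 and 0.25 in the Esrra-/- libraries. The genotypes did not overlap, with means of −0.17 ± 0.12 and 0.17 ± 0.07 (SD, n = 3 each). The gap of 0.35 between them was made up of a mean change of −0.30 in the mtDNA-encoded subunits and −0.64 in the nuclear-encoded ones, and it lay between 0.28 and 0.39 with any 1 library left out and at 0.35 without both replicate 3 libraries. It was 0.34 in complex I, 0.40 in complex IV and 0.36 in complex V, with no overlap between the genotypes, and 0.26 in complex III, where *mt-Cytb* is the only mtDNA-encoded subunit and the genotypes overlapped. Each gene was centred on its own mean over the 6 libraries, so the opposite signs of the genotypes are set by the centring and the gap between them is the measurement. It is a description without a test, since the genes were chosen with results of these libraries known. Replicate 3 stood highest of its genotype for the subunits of both genomes in every complex.

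**Figure D2:**
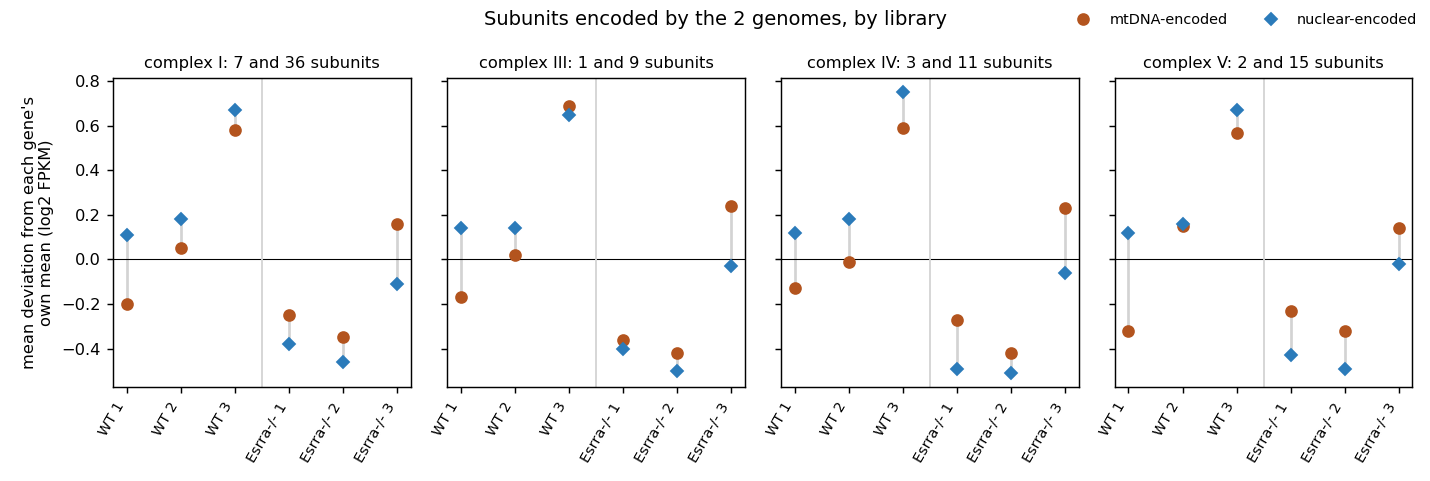
Mean deviation of log2 FPKM from each gene's own mean over the 6 libraries, for mtDNA-encoded subunits (circles) and nuclear-encoded subunits (diamonds) of 4 complexes. The grey bar joins the 2 means of a library. Centring makes the differences of the 2 genotypes opposite in sign. The measurement is the shift of the mtDNA-encoded means relative to the nuclear-encoded ones from WT to Esrra-/-, 0.34 in complex I, 0.26 in complex III, 0.40 in complex IV and 0.36 in complex V.

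The nuclear genes that replicate, transcribe and translate the mtDNA were measured in the same way. None of the 21 was called, 3 had an unadjusted p under 0.05, all of them lower (*Ssbp1*, *Tsfm* and *Gfm1*, or 3 of 21 where 6.49% of all genes were lower at that p), and the median log2 fold change was −0.11, with 16 negative and 5 positive. The 3 became 0 when each library was scaled to its FPKM sum without the mtDNA genes, with a median of −0.07, and 1 without WT replicate 2 or without Esrra-/- replicate 3. With the Y-linked covariate they were 6, where 18.6% of all genes had such a p. The signs of *Nrf1* and *Mtif3* turned with quantile normalization, and that of *Nrf1* also with median-ratio scaling. For 4 genes every Esrra-/- library lay below every WT library (*Ssbp1*, *Tufm*, *Tsfm* and *Gfm1*; 9.14% of all genes did), and for 1, *Gabpb1*, every one lay above (8.45% of all genes). No adjusted p was under 0.05, where 0.0378% of all genes had one. The median was −0.24 without Esrra-/- replicate 2, −0.19 without WT replicate 3, −0.08 without Esrra-/- replicate 3 and −0.14 without both replicate 3 libraries.

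Of the replication genes, *Ssbp1* (chr6:40421351-40431822, NCBIM37), which encodes the protein that coats single-stranded mtDNA, had 12.7, 14.6 and 13.9 FPKM in WT and 10.7, 11.6 and 9.11 FPKM in Esrra-/-. The groups did not overlap, and the log2 fold change was −0.39 (SE 0.13, adjusted p = 0.387, limma). *Polg*, the catalytic subunit of the mtDNA polymerase, had 8.34, 6.79 and 6.43 FPKM in WT and 8.46, 7.37 and 5.21 FPKM in Esrra-/-, a log2 fold change of −0.05 (SE 0.20, limma adjusted p = 0.943). Its accessory subunit *Polg2* had a mean of 6.28 FPKM over all libraries and a log2 fold change of 0.03 (SE 0.26).

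The transcription genes overlapped between the genotypes. *Polrmt*, the mitochondrial RNA polymerase, had 9.65, 8.76 and 10.9 FPKM in WT and 10.5, 10.8 and 8.7 FPKM in Esrra-/-, a log2 fold change of 0.03 (95% interval −0.30 to 0.36, limma). *Tfam* (chr10:70688212-70701028, NCBIM37), which packages the mtDNA and opens its promoters, had 12.6, 19.5 and 12.6 FPKM in WT and 12.6, 12.6 and 10.1 FPKM in Esrra-/-. WT replicate 2 stood alone above the other WT libraries, which were level with 2 of the Esrra-/- libraries, and the log2 fold change of *Tfam* was −0.31 (SE 0.20, adjusted p = 0.604, limma). It was −0.10 without WT replicate 2.

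*Tfb2m*, the factor that melts the promoter with POLRMT, had 8.79, 9.7 and 8.02 FPKM in WT and 7.71, 8.31 and 6.45 FPKM in Esrra-/-, a log2 fold change of −0.24 (SE 0.14, limma adjusted p = 0.583) that was −0.14 without Esrra-/- replicate 3. *Tfb1m*, which methylates the small ribosomal RNA, was the lowest of the 34 genes, with 2.62, 3.57 and 3.3 FPKM in WT and 2.72, 3.57 and 2.79 FPKM in Esrra-/-, a log2 fold change of −0.06 (SE 0.19). Neither gene separated the genotypes.

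Among the genes that handle mitochondrial RNA, *Lrpprc*, which stabilises the mRNAs, had 15.3, 14.4 and 10.9 FPKM in WT and 9.36, 12 and 9.47 FPKM in Esrra-/-. Only Esrra-/- replicate 2 reached into the WT range, and the log2 fold change was −0.39 (95% interval −0.79 to 0.02, adjusted p = 0.48, limma). *1810035L17Rik*, the synonym of *Slirp*, had 35, 40.2 and 49.3 FPKM in WT and 34.8, 29.2 and 37.3 FPKM in Esrra-/-, a log2 fold change of −0.29 (SE 0.17, limma adjusted p = 0.575). It was −0.16 without WT replicate 3. *Supv3l1*, the helicase of the RNA degradosome, had a log2 fold change of −0.34 (SE 0.18, limma adjusted p = 0.536; −0.19 without Esrra-/- replicate 3), its partner nuclease *Pnpt1* one of −0.11, and *Elac2*, which trims tRNA ends, one of −0.15, or −0.02 without Esrra-/- replicate 3. Their means over all libraries were 7.04, 9.08 and 5.75 FPKM.

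Of 7 factors of mitochondrial translation none was called, and 3 had every Esrra-/- library below every WT library, as 9.14% of all genes did. These are *Tsfm*, *Gfm1* and *Tufm*, already counted above among the nuclear genes. *Tsfm* (chr10:126448628-126467896, NCBIM37), the exchange factor that recharges TUFM, had 11.9, 11.2 and 10.7 FPKM in WT and 7.5, 9.49 and 6.05 FPKM in Esrra-/-. Its log2 fold change of −0.57 (SE 0.17, adjusted p = 0.344, limma) was the most negative of the 34 genes and lay just short of the 0.58 needed for a call. It passed at −0.61 without WT replicate 3 and at −0.73 without Esrra-/- replicate 2, and was −0.41 at its smallest with 1 library left out.

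*Gfm1* (chr3:67234018-67280451, NCBIM37), the translocase that moves the ribosome along the mRNA and the gene with the ESRR core motif shown above, had 17.9, 17.7 and 15.1 FPKM in WT and 12.7, 14.5 and 11.4 FPKM in Esrra-/-. The groups did not overlap, and the log2 fold change was −0.39 (SE 0.14, adjusted p = 0.393, limma). The core motif was found in 4.72% of all promoters, and its part in the change of *Gfm1* was not tested. *Tufm*, which brings charged tRNAs to the ribosome, was the most abundant nuclear gene of the list, with 82, 78.2 and 80.1 FPKM in WT and 63.6, 69.1 and 69.7 FPKM in Esrra-/-. The replicates of *Tufm* were tight and the groups separate, but the change was small, −0.25 (SE 0.12, adjusted p = 0.515, limma). The recycling and initiation factors were nearer to 0, with −0.15 for *Mrrf*, −0.11 for *Gfm2*, −0.10 for *Mtif2* and 0.04 for *Mtif3*, and overlapped between the genotypes. With 1 library left out the first 3 came as near to 0 as −0.06 (without WT replicate 3), −0.04 (without WT replicate 2) and −0.01 (without WT replicate 1), and *Mtif3* changed sign.

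The nuclear transcription factors known to drive this machinery stood close to the WT level. *Nrf1* had 6.51, 8.54 and 6.23 FPKM in WT and 7.07, 6.72 and 7.51 FPKM in Esrra-/-, a log2 fold change of 0.01 (95% interval −0.34 to 0.37, limma). *Gabpa*, the DNA-binding subunit of the GABP factor, had 11.7, 12.3 and 8.97 FPKM in WT and 10.5, 12 and 9.34 FPKM in Esrra-/-, a log2 fold change of −0.05 (SE 0.16). *Gabpb1*, its activating subunit, had 7.08, 7.19 and 7.49 FPKM in WT and 9.52, 7.8 and 7.82 FPKM in Esrra-/-. All Esrra-/- values of *Gabpb1* lay above those of WT, with Esrra-/- replicate 1 highest, and the log2 fold change was 0.20 (SE 0.13, adjusted p = 0.602, limma). It was 0.11 without that library.

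**Figure D3:**
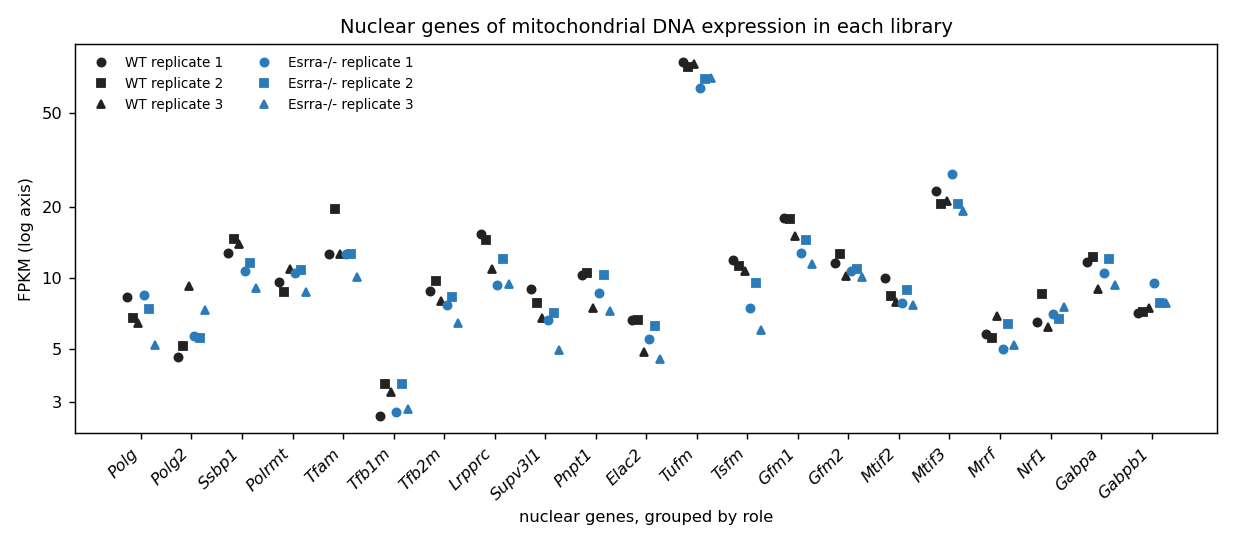
FPKM of the 21 nuclear genes on a log axis, grouped by role from replication (left) to nuclear transcription factors (right). Each point is 1 library, with colours and shapes as for the mtDNA genes. *Ssbp1*, *Tufm*, *Tsfm* and *Gfm1* have all Esrra-/- points below all WT points, and *Gabpb1* has them above.

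**Figure D4:**
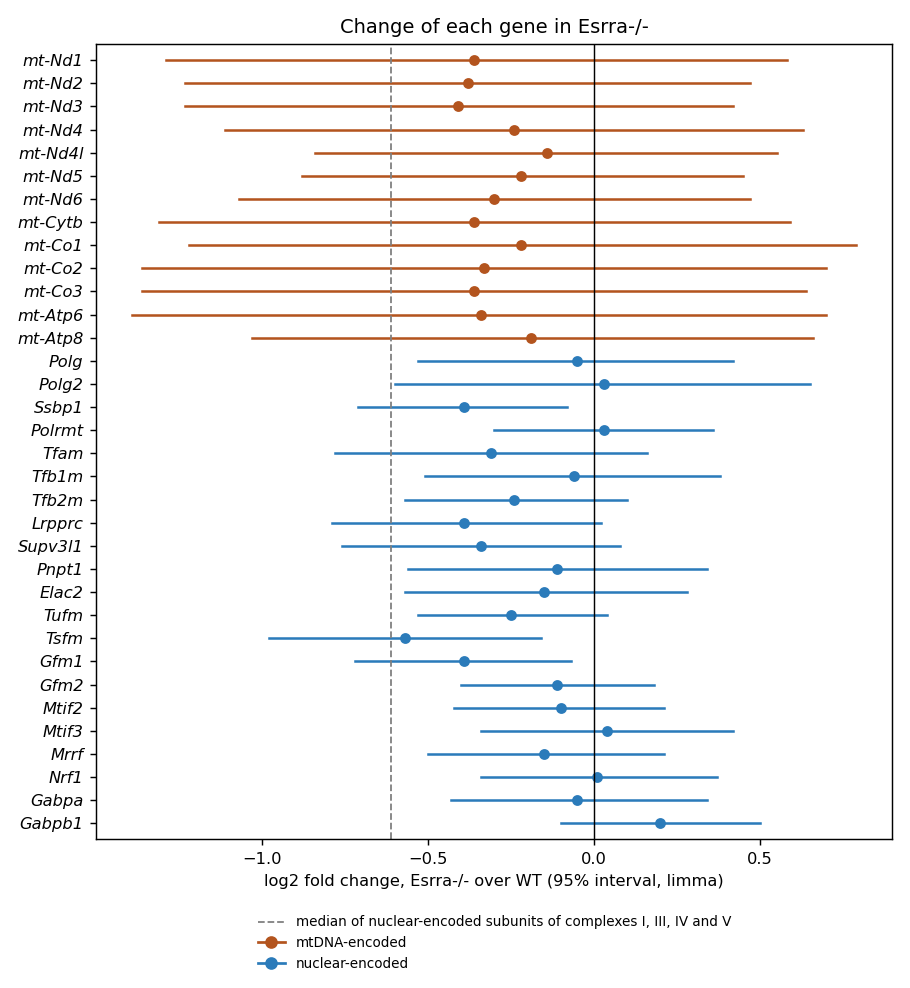
Log2 fold change of each of the 34 genes, Esrra-/- over WT, with its 95% limma interval. The dashed line marks −0.61, the median of the nuclear-encoded subunits, which lies inside the interval of all 13 mtDNA genes. The intervals of *Ssbp1*, *Tsfm* and *Gfm1* lie below 0.

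Of a wider list of 86 further genes of these pathways 85 were measured and tested, and 81 of them were not called. The other 4 fell (4.71%, against 3.28% of all genes called lower) and 0 rose, where 1.35% of all genes were called higher, and the median log2 fold change was −0.18, with 65 negative and 20 positive. Without a covariate none had a limma adjusted p under 0.05, and at an unadjusted p under 0.05 there were 12 lower and 1 higher, where 6.49% of all genes were lower and 4.3% higher at that p. The 4 became 7 without WT replicate 3 and 9 without Esrra-/- replicate 2, and the genes called lower among all 10596 also grew in number, from 348 to 398 and 537. Without both replicate 3 libraries 3 were called lower and 1 higher.

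Of 6 genes of mitochondrial transcription and termination 1 fell. This was *Mrpl12*, a protein of the large mitochondrial ribosomal subunit that has also been described to bind POLRMT. It had 76.9, 80.7 and 90.1 FPKM in WT and 44, 50.2 and 45.8 FPKM in Esrra-/-, a log2 fold change of −0.82 (SE 0.13, adjusted p = 0.136, limma). The groups were far apart relative to their spread, and the value stayed between −0.87 and −0.76 with any 1 library left out. The limma adjusted p of *Mrpl12* ran from 0.0476 with the Y-linked covariate to 0.587 without Esrra-/- replicate 1.

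Of 32 genes of RNA processing, modification and decay 2 fell, both of the FASTK family of mitochondrial RNA-binding proteins. *Fastk*, which is needed for the maturation of *mt-Nd6* mRNA, had 48.9, 42.9 and 57.2 FPKM in WT and 32, 32 and 32.6 FPKM in Esrra-/-, a log2 fold change of −0.61 (SE 0.14, adjusted p = 0.268, limma). *Fastkd1* had 4.49, 2.94 and 3.3 FPKM in WT and 2.15, 2.04 and 1.58 FPKM in Esrra-/-, a log2 fold change of −0.85 (SE 0.22, adjusted p = 0.295, limma). Neither overlapped between the genotypes. *Fastk* was −0.51, short of a call, without WT replicate 3. The one gene with an unadjusted p under 0.05 in the other direction was *Rpusd3*, a predicted pseudouridine synthase, with 3.39, 4.09 and 4.66 FPKM in WT and 6.32, 5.14 and 5.56 FPKM in Esrra-/- (log2 fold change 0.48, adjusted p = 0.384, limma), and it was called higher without WT replicate 3.

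Of 20 genes of translation and ribosome assembly 1 fell. This was *Guf1*, the mitochondrial homologue of the bacterial translation GTPase LepA, with 5.42, 5.58 and 4.42 FPKM in WT and 4.03, 2.92 and 2.59 FPKM in Esrra-/-, a log2 fold change of −0.69 (SE 0.20, adjusted p = 0.328, limma). The groups did not overlap, and the value was −0.56, short of a call, without Esrra-/- replicate 3. None of 16 genes of replication and nucleotide supply and none of 11 nuclear regulators was called, with medians of −0.17 and −0.02. Over all genes called, 70.9% were lower, and this split was 55.8% when each library was scaled to its FPKM sum without the mtDNA genes.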

How the data were processed

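The 6 RNA-seq libraries of duodenal epithelium, 3 per genotype, were grouped by the genotype in the labels. The libraries were made with a TruSeq RNA v2 kit, and the methods state that BGI prepared them from RNA sent by the authors. The authors quantified the reads on the mouse build mm9 and deposited the result as FPKM per gene, 22611 genes in all. FastQC 0.11.3, kallisto 2.1.0 and DESeq2 2.2.1 are listed in the submitters' processing notes, and the annotation used is not given in the sources used here. A second deposited table holds the authors' own comparison and was not used.

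From the FPKM values, log2(FPKM + 0.1) was tested with limma 3.58.1 in R 4.3.3 (lmFit and eBayes with a trend, two-sided, no covariate) for the 10596 genes with a mean above 1 FPKM, with Benjamini-Hochberg adjustment over all of them. The code was tested on simulated data. A count test was not run, since counts cannot be had from FPKM. The fragments per library are not known from FPKM. At values under 0.2 FPKM the most common ratio of each library to WT replicate 1 was 0.976 to 1.21, highest in replicate 3 of each genotype. Only 5.28% to 15.3% of those genes stood at it, so it is a rough guide to the scaling of a library and not its depth.

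Coordinates are those of GENCODE M1 on NCBIM37, the assembly of mm9. Motif searches used RefSeq promoters of GRCm38.p6, whose coordinates were not converted. Every gene of the list was named, with values per library for the mtDNA genes, for genes with an unadjusted p under 0.05 and for a fixed set of others. Of the wider lists up to 3 called genes per list and direction were named. *Rpusd3* was named after its values were seen. Genes and lists were chosen with earlier results of these data known. Each mouse gave 1 library. The limma p-values rest on the spread between these mice, drawn towards a trend of spread with expression over all genes tested. Alternatives were another pseudocount, other filters, other scalings, no trend, a replicate block, a Y-linked covariate, an adjusted p as the threshold each library left out and, added later, both replicate 3 libraries left out.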

Additional observations from a re-analysis of the deposited data

How the results depend on the processing

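No gene of the mtDNA and no nuclear gene of its expression was called under any alternative except *Tsfm*. *Tsfm* was called lower with median-ratio scaling (−0.59, 1 gene called), and the number called lower was 0 to 1 with any 1 library left out. Of the wider lists, 0 genes were called lower with an adjusted p under 0.05 as the threshold, and with 1 library left out 3 to 9 were called lower and 0 to 1 higher. *Guf1* was short of a call at −0.57 with a pseudocount of 1, and *Fastk* at −0.57 when libraries were scaled without the mtDNA genes. With quantile normalization, which sets the highest ranks of the libraries equal, the mtDNA genes had a median of −0.02, and the sign turned for *mt-Nd5* (0.05), *mt-Nd6* (0.06), *mt-Co2* (0.02), *Mtif3* (−0.01) and *Nrf1* (−6.3e-04). With median-ratio scaling it turned for *Nrf1* (−0.0015). With 1 library left out, log2 fold changes near 0 turned sign in *Polg* (−0.2 to 0.14), *Polg2* (−0.16 to 0.32), *Polrmt* (−0.04 to 0.13), *Tfb1m* (−0.19 to 0.03), *Pnpt1* (−0.27 to 0.02), *Mtif3* (−0.12 to 0.14), *Nrf1* (−0.07 to 0.15) and *Gabpa* (−0.18 to 0.04), and the difference between the genotypes in 3 ratios, Esrra-/- minus WT, ran from −2.38 to 2.01 percentage points for *mt-Nd6* to the heavy-strand genes, from 1.31 to 9.46 for *mt-Atp8* to *mt-Atp6* and from 0.42 to 4.54 for *mt-Nd4l* to *mt-Nd4*. Without both replicate 3 libraries, an alternative chosen after seeing the data, the sign turned for *Polg* (0.07), *Tfb1m* (0.02) and *Nrf1* (−0.11), *Fastk* was short of a call at −0.51, and 1 gene of the wider lists was called higher. The log2 ratio of the summed mtDNA level ran from −0.52 to −0.06 with 1 library left out. The labels do not say whether the replicate numbers pair the mice. The same-number correlations of deviations were 0.012, 0.263 and 0.376. For replicates 2 and 3 the same-number library was the best match in both genotypes, and for replicate 1 it was not, so these correlations do not settle the pairing. With the replicate block, 0 of the 34 genes were called and 7 of the 13 mtDNA genes had an unadjusted p under 0.05, where 21.6% of all genes did. FPKM values give no fragment counts, so the counting error behind each value is not known.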
